A study of Mus musculus with 6 samples.

Results

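The Hox genes examined here are the protein-coding genes of the 4 mouse Hox clusters. They were taken from the GENCODE M1 annotation of the mm9 genome by name, as Hox followed by a, b, c or d and a number from 1 to 13. This rule gave 39 genes of 22232 protein-coding gene names, and it used no measured value. The data are ChIP-seq peak lists for H3K27ac, H3K4me3 and Pax5, with 1 library each, from bone marrow pre-B cells of C57BL/6 mice of both sexes aged 6 to 14 weeks. All libraries, and the 3 input libraries whose reads were not used here, share 1 genotype, RAG-/- µ+. These mice lack the RAG recombinase, which the study's methods give as a Rag1 deletion, and carry a rearranged human heavy chain transgene. Their B lineage cells therefore stop at a pre-B-like stage and cannot rearrange a light chain gene, which limits them as a model of normal pre-B cells, and how many mice gave each library is not given in the sources used here.

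Hox genes encode homeodomain transcription factors that set position along the body axis. The genes of a cluster lie in the order in which they are used from head to tail, and genes with the same number in different clusters are paralogues. In blood, Hoxa genes such as Hoxa9 act in stem and progenitor cells, where Meis and Pbx proteins are their partners, and their use falls as cells mature. Trithorax proteins such as Mll1 keep Hox genes active, and Polycomb proteins keep them silent. H3K4me3 marks promoters that are active or poised, often at stretches rich in CpG dinucleotides, H3K27ac marks active promoters and enhancers, and Pax5 is the factor that commits cells to the B lineage.

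Pairs of Hoxa and Hoxd paralogues show a contrast that the lists hold, since H3K4me3 was listed at the Hoxa member of each pair and not at the Hoxd member. The pairs were chosen after their values were seen. The sequences are the 250 bases before the outermost start of each gene, read from NCBIM37, the assembly known as mm9, and written 5′ to 3′ on the strand of the gene, with each CpG in capitals. Hoxa13 (chr6:52210875-52211124, minus strand) and Hoxa4 (chr6:52141753-52142002, minus strand) held 35 and 41 CpG. Hoxd13 (chr2:74506117-74506366, plus strand) was also dense, with 31 CpG, whereas Hoxd4 (chr2:74559785-74560034, plus strand) held 3. The last value depends on the start shown, since within 500 bp on each side the ratio of observed to expected CpG was 0.256 at this start of Hoxd4 and 0.585 at its other start.
Hoxa13: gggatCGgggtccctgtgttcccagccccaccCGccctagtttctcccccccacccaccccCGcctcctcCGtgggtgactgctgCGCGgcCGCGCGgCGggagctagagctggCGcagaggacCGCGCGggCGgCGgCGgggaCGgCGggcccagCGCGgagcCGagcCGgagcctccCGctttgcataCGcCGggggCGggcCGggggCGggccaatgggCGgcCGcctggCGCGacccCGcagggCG
Hoxd13: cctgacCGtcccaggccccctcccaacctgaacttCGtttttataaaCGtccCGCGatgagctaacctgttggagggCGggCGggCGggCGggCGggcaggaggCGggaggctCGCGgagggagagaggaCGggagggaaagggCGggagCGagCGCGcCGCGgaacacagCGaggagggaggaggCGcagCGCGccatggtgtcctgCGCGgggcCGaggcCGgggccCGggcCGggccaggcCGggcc
Hoxa4: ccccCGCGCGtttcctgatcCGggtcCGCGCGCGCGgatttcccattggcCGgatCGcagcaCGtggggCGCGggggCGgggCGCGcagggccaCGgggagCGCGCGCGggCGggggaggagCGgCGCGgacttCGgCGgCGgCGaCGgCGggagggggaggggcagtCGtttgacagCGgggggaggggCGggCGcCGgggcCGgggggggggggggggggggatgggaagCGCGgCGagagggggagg
Hoxd4: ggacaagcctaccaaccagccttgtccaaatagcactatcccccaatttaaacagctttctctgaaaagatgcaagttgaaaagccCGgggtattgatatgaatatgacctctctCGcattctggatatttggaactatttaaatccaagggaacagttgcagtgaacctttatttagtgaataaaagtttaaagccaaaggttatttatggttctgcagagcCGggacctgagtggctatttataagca

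Each list has 1 library, so no value below has a replicate check, no test was made, and the counts are descriptions. The H3K27ac list held 69345 peaks with scores from 3.06 to 330.05, and the Pax5 list held 15445 peaks with scores from 87.9 to 3214.14. The 2 scores have different, unnamed scales and are compared only within a list. The H3K4me3 list gives bins of 25 bp without a score, and these were joined across gaps of up to 100 bp into 17979 regions, whose width is the value used here. The files hold no read counts, so the depth is unknown, and a gene without a peak is one whose signal did not reach the threshold of its list. In a bulk sample, a peak present in few cells and a weak peak in all cells cannot be told apart.

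The labelled cell type was checked on marker genes. Over all protein-coding genes, 48.4% had H3K27ac within 1 kb of a start, 52.7% had H3K4me3, 37.5% had Pax5 and 43.8% had no peak. The marker lists are short, so their counts are read only beside these shares. All 9 B lineage markers, such as Cd79a and Ebf1, had H3K27ac and Pax5 within 1 kb of a start, and 7 had H3K4me3. None of the 5 T cell markers and none of the 4 limb and axial genes Tbx5, Pitx1, T and Shh had a peak of any list. Markers of other bone marrow cells did have H3K27ac, with 4 of 5 myeloid and 3 of 4 erythroid markers, at scores from 8.015 for Mpo to 14.07 for Lyz2 and from 9.754 for Epor to 33.42 for Hbb-b1. Of these 2 lists, Elane and Gata1 had no peak of any list within 1 kb. None of the 5 stem and progenitor markers had H3K27ac, whereas Kit and Mecom had H3K4me3 and Pax5.

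Most Hox genes carried none of the 3 features at a start. A gene was counted where any base of a peak or region lay within 1 kb of the start of any of its protein-coding transcripts. By this count 30 of 39 Hox genes (76.9%) had no peak of any list, against 43.8% of all protein-coding genes. H3K27ac was listed at 3 Hox genes (7.69%), namely Hoxa3, Hoxa4 and Hoxa7, against 48.4% of all genes. H3K4me3 was listed at 9 (23.1%), against 52.7%, and these included Hoxa3, Hoxa4, Hoxa6, Hoxa7, Hoxa9, Hoxa10, Hoxa13 and Hoxc9. Pax5 was listed at Hoxa3 and Hoxa7 only (5.13%), against 37.5%. Hoxa3 and Hoxa7 thus had all 3 features, as did 34.4% of all protein-coding genes. Each peak or region counted in this way lay within 1 kb of a single Hox gene.

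**Figure D1:**
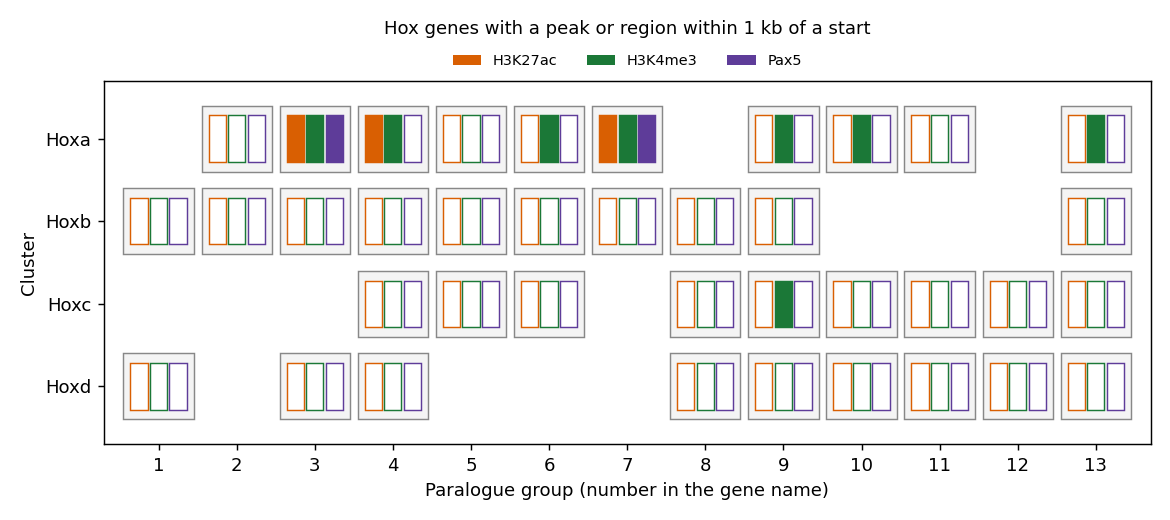
Hox genes by cluster (rows) and paralogue group (columns), with a box for each reported gene and a filled bar where a peak or region of H3K27ac, H3K4me3 or Pax5 lay within 1 kb of a start. Filled bars stand in the Hoxa row and elsewhere only at Hoxc9.

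The clusters differed in these counts. Of the 11 Hoxa genes, 3 had H3K27ac, 8 had H3K4me3 and 2 had Pax5, and 3 had none, such as Hoxa5. Of the 28 genes in the other clusters, none had H3K27ac or Pax5 and 1 had H3K4me3 (3.57%). Paralogue groups 3, 4, 6, 7, 10 and 13 had a feature at the Hoxa member alone, group 9 had one at Hoxa9 and Hoxc9, and groups 2, 5, 8, 11 and 12 had none. The Hoxa genes with H3K4me3 include both anterior genes such as Hoxa3 and the most posterior gene, Hoxa13. For H3K4me3 the order in the cluster thus did not divide marked from unmarked genes. H3K27ac and Pax5 were listed only at genes from Hoxa3 to Hoxa7. The median distance from a Hoxa start to the nearest peak was 5856 bp for H3K27ac and 0 bp for H3K4me3. It was 27584 and 6878.5 bp for Hoxb, 185943 and 22697 bp for Hoxc, and 118184 and 98418 bp for Hoxd. For Pax5 the order was different, at 12679 bp for Hoxa, 24440 bp for Hoxd, 47459.5 bp for Hoxb and 191663 bp for Hoxc.

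Where the features were present at a start, the H3K27ac scores and most H3K4me3 widths were below the medians of all genes with that feature. The highest H3K27ac score at a start was 16.9 for Hoxa3, 12.3 for Hoxa4 and 12.28 for Hoxa7. Over the 10754 genes with an H3K27ac peak at a start the median was 32.09, and 26.3% of them had 16.9 or less. The 3 Hox scores were above the median of 8.52 of the whole list, which also holds peaks away from starts. These 3 Hox scores lay within or just above the range of the myeloid markers given above, whose part in the result was not tested. The widest H3K4me3 region at a start ran from 200 bp at Hoxa10 to 2700 bp at Hoxa3, with a median of 975 bp, against 1475 bp over all 11722 genes with a region. Hoxa3 was the exception, since 93.6% of those genes had a region of 2700 bp or less. The Pax5 scores at a start were 597.1 for Hoxa7 and 137.9 for Hoxa3, on either side of the median of 268.6 over 8338 genes.

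H3K4me3 without H3K27ac was common among the Hox genes. Of the 9 Hox genes with H3K4me3, 3 also had H3K27ac (33.3%), against 86.0% of all protein-coding genes with H3K4me3. Those with H3K4me3 alone included Hoxa6, Hoxa9, Hoxa10, Hoxa13 and Hoxc9, with widest regions of 775, 975, 200, 550 and 350 bp. None of these had Pax5 either. All these regions were narrower than the genome-wide median at a start, and that at Hoxc9 was the only feature of its whole cluster.

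Most Hox genes had at least 1 CpG-rich start, both among those with and among those without H3K4me3. A start was called CpG-rich where GC content was at least 50% and the ratio of observed to expected CpG at least 0.6 within 500 bp on each side, and a gene was described by its start with the highest ratio. By this measure 25 of 39 Hox genes (64.1%) were CpG-rich, against 48.1% of all genes. H3K4me3 was listed at 9 of these 25 (36.0%), against 86.8% of all CpG-rich genes, and H3K27ac at 3 (12.0%), against 75.0%. All 9 Hox genes with H3K4me3 were CpG-rich by this measure, with ratios from 0.626 to 0.953 and a median of 0.722. At Hoxa10 the H3K4me3 region lay at another start, whose ratio was 0.571, and not at the start with 0.722. At Hoxc9 the region lay 92 bp from a start with a ratio of 0.521 and 685 bp from the start with 0.651. Of the 30 without it, 16 were CpG-rich, and their ratios ran from 0.318 to 1 with a median of 0.673. Over the genome the median ratio was 0.766 with H3K4me3 and 0.251 without it. Hoxd8 (ratio 1), Hoxd11 (0.996), Hoxa5 (0.996), Hoxd13 (0.905) and Hoxc12 (0.891) were among the unmarked genes with the highest ratios, and they were named after their values were seen.

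**Figure D2:**
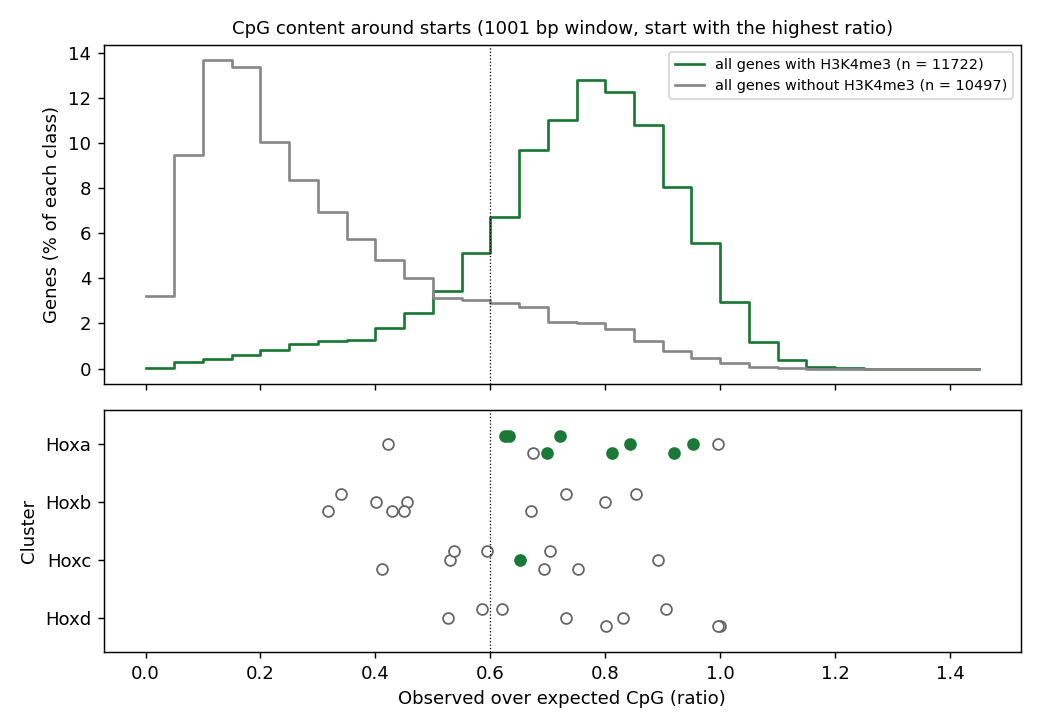
Observed over expected CpG within 500 bp on each side of a start. The upper panel gives the percentage of all protein-coding genes with (green) and without (grey) H3K4me3 at each ratio, and the lower panel gives 1 point per Hox gene, filled where H3K4me3 was listed. The dotted line stands at 0.6, and open points reach as far right as filled ones.

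The Hoxa cluster (chr6:52105366-52210874, 105.5 kb, with all Hoxa genes on the minus strand) held most of the peaks. It contained 6 H3K27ac peaks, 14 H3K4me3 regions and 2 Pax5 peaks, which covered 3.08%, 9.84% and 1.98% of its length. Over the genome the lists covered 1.80%, 0.734% and 0.618%. The H3K27ac peaks lay in 1 stretch of 37.0 kb (35.1% of the cluster) from Hoxa4 to Hoxa9, which also held 9 of the 14 H3K4me3 regions and both Pax5 peaks. That stretch runs from the first to the last H3K27ac peak of the cluster, so by definition none lies outside it. Beyond it, H3K4me3 was found without Pax5, as at Hoxa10 and Hoxa13.

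**Figure D3:**
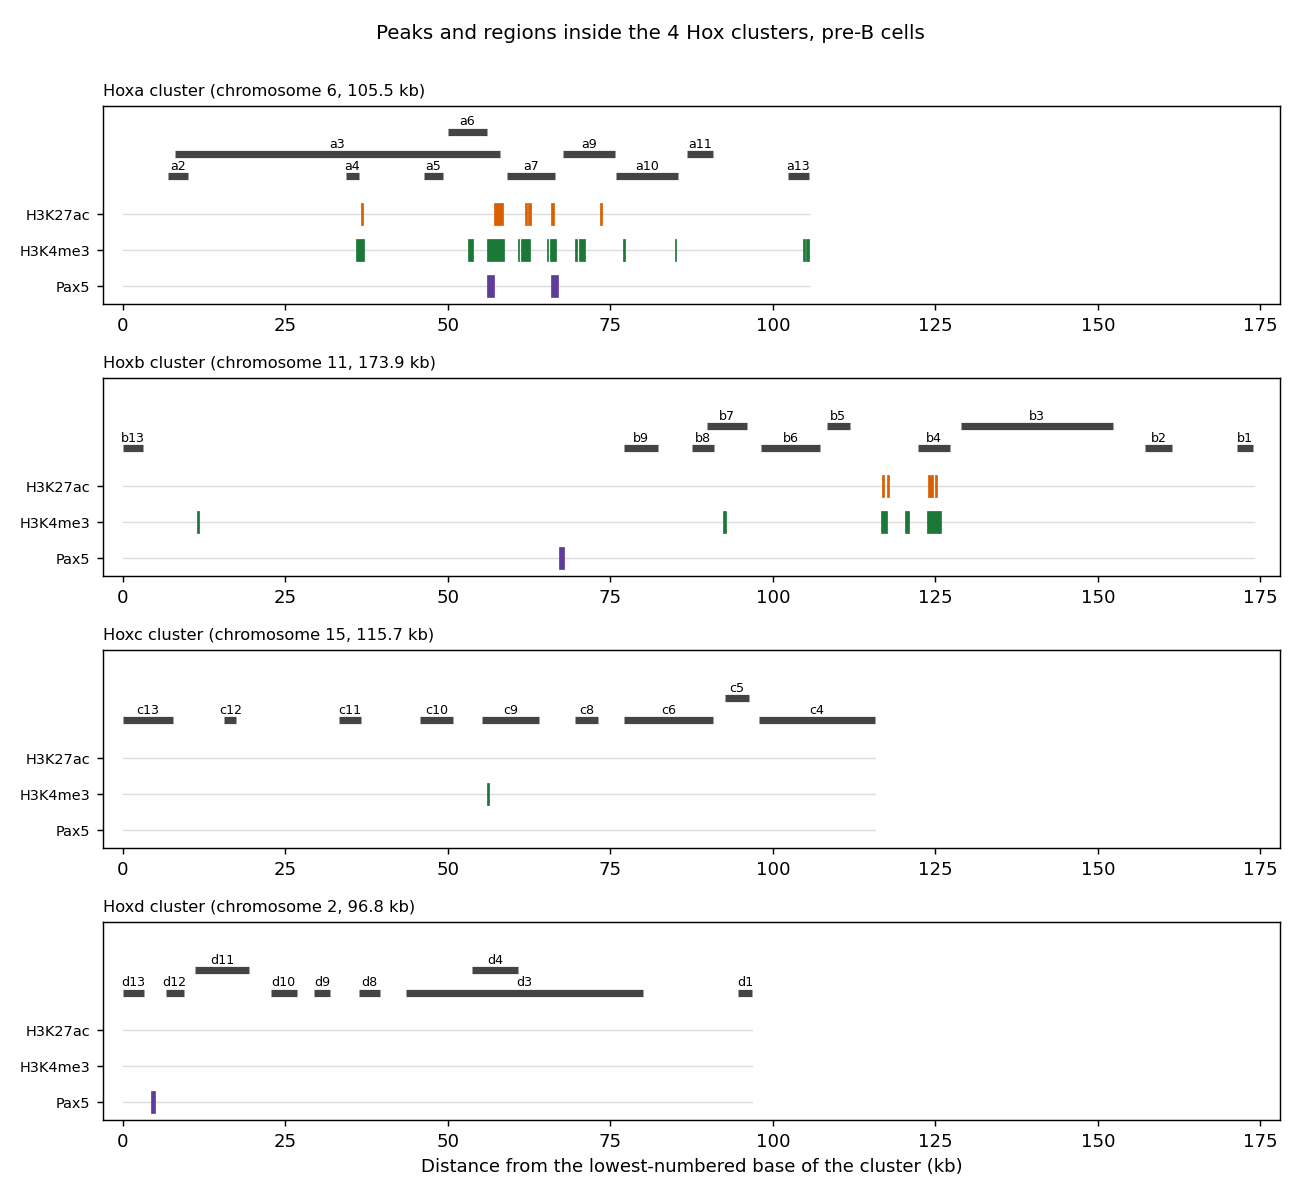
Maps of the 4 Hox clusters, with the distance in kb from the lowest-numbered base of each cluster on the horizontal axis, spans of the reported genes as grey bars on rows set only to keep them apart, and their peaks or regions of the 3 lists, with those between them, as coloured bars to scale with a thin outline. Hoxa holds 6 H3K27ac peaks, Hoxb holds 4, and Hoxc and Hoxd hold none.

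Hoxa3 is a paralogue group 3 gene known for its part in the development of the throat organs, including the thymus. Its features stood at its outermost starts. In GENCODE M1, 2 gene identifiers carry this name, and their protein-coding starts extend over a stretch that overlaps Hoxa4, Hoxa5 and Hoxa6. The H3K27ac peak of 1455 bp (chr6:52162450-52163904, score 16.9) ranked in the top 24.1% of its list. It lay inside an H3K4me3 region of 2700 bp (chr6:52161371-52164070), which was in the widest 3.84% of regions. More than 1 coding start is annotated under this name. The H3K27ac peak nearest to any of them is that near Hoxa4, at 8485 bp, and not the one described here. The farthest coding start lies 40.7 kb from the outermost transcript start. The peak also overlaps an exon of the lincRNA gene 2700086A05Rik, transcribed on the other strand, so the lists do not tell which gene the features belong to. A Pax5 peak of 1104 bp (chr6:52161365-52162468, score 137.9) overlapped both and began 598 bp from the nearest Hoxa3 start. With starts of every annotated transcript, this peak was also within 1 kb of Hoxa6.

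Hoxa7 had the most features of any Hox gene. It has 4 annotated starts, and 3 H3K27ac peaks, 3 H3K4me3 regions and 1 Pax5 peak lay within 1 kb of them. Around the innermost start, H3K27ac peaks with scores of 8.412 and 12.28 (chr6:52167183-52167503 and chr6:52167705-52168156) overlapped an H3K4me3 region of 1425 bp (chr6:52166671-52168095). At the outermost start all 3 lists overlapped, with H3K27ac at a score of 9.754 (chr6:52171315-52171775), H3K4me3 over 850 bp (chr6:52171146-52171995) and Pax5 at a score of 597.1 (chr6:52171273-52172259). The Pax5 peak covered the start itself and ranked 1925 of 15445, in the top 12.5% of its list, whereas the 3 H3K27ac peaks stood between the top 34.2% and the top 50.5% of theirs. Pax5 was thus the feature at Hoxa7 that ranked highest within its list.

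The sequences under the Pax5 peaks of the Hoxa and Hoxd clusters are shown because Pax5 was listed there. Hoxa7 gives the 300 bases before its outermost start (chr6:52171854-52172153, minus strand), all inside the Pax5 peak. Hoxa and Hoxd give the middle 300 bases of the other peaks (chr6:52161766-52162065 and chr2:74510852-74511151, plus strand). CpG are in capitals, 13, 16 and 17 in number, and the assembly is NCBIM37.
Hoxa7: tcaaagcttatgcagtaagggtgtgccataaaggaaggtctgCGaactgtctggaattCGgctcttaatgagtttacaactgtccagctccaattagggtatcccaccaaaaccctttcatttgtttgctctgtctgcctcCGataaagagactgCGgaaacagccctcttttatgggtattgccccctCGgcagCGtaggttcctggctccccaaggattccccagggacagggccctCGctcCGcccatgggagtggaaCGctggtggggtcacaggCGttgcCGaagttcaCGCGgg
Hoxa Pax5: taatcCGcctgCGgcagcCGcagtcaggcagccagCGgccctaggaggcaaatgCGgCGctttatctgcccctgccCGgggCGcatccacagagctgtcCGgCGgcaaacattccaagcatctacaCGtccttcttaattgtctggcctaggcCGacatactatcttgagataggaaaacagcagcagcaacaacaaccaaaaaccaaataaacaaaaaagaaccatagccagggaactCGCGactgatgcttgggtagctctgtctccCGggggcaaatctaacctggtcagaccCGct
Hoxd Pax5: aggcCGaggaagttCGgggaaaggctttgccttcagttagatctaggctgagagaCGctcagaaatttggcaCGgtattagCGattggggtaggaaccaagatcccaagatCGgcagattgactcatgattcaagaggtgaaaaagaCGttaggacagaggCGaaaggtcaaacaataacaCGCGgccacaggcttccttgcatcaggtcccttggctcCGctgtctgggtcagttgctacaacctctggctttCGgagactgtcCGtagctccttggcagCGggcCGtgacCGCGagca

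The letters GCGTGAC, the core of the known Pax5 consensus, were searched on both strands (GTCACGC on the other strand) as the only motif. They were present in 0 of the 4 Pax5 peaks inside Hox clusters, whether the middle 300 bases or the whole peak were read. Over all Pax5 peaks they were present in the middle 300 bases of 881 of 15445 (5.70%), and in 1121 of 45961 windows of 300 bases at protein-coding starts (2.44%). Since few peaks of the list hold these exact letters, their absence from 4 peaks says only that they are not in these windows.

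The other Hoxa genes had smaller or fewer features. Hoxa4 had an H3K27ac peak of 296 bp (chr6:52142075-52142370, score 12.3), 323 bp from its nearest start, inside an H3K4me3 region of 1250 bp (chr6:52141296-52142545). Hoxa6 had a region of 775 bp, and Hoxa9, the Hoxa gene best known in blood progenitors and leukaemia, had regions of 975 and 300 bp and no H3K27ac within 1 kb. The H3K27ac peak nearest to a Hoxa9 start lay 1182 bp from it (chr6:52178822-52179082, score 6.656). This peak was inside the annotated span of Hoxa9 and overlapped an exon of the noncoding gene RP23-329P9.11. It was the only H3K27ac peak in the clusters without an overlapping H3K4me3 region. Hoxa10 had a region of 200 bp, and Hoxa13, a gene of limb and hindgut development, had regions of 550 and 250 bp at its start.

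In the Hoxb cluster (chr11:96055630-96229570, 173.9 kb) no gene was counted at its annotated start, yet 4 H3K27ac peaks and 5 H3K4me3 regions lay inside it. All 4 H3K27ac peaks fell within 8.5 kb (4.87% of the cluster) between Hoxb5 and the end of Hoxb4, a gene known for expanding blood stem cells when it is overexpressed. In Hoxb4 itself, H3K27ac peaks with scores of 15.91 (chr11:96179572-96180216) and 4.995 (chr11:96180564-96180860) lay inside an H3K4me3 region of 2200 bp (chr11:96179296-96181495), in the widest 8.65% of its list. This region begins 1298 bp from the single annotated start of Hoxb4, and the nearest H3K27ac peak 1574 bp from it, which is why Hoxb4 was not counted. With coding starts in place of transcript starts, Hoxb4 had both H3K27ac and H3K4me3, and it also had both at the start given by RefSeq. These alternatives were chosen after the data were seen. By coding starts the number of Hox genes with H3K27ac stayed at 3 and with H3K4me3 at 9, but Hoxa4, Hoxa7 and Hoxb4 made up the first, and Hoxb4 and Hoxb7 replaced Hoxa3 and Hoxc9 in the second.

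The other Hoxb features lay more than 1 kb from any Hox start. H3K27ac peaks with scores of 7.395 and 5.942 (chr11:96172389-96172794 and chr11:96173173-96173474) lay between Hoxb5 and Hoxb4 and overlapped an H3K4me3 region of 1000 bp (chr11:96172246-96173245). A region of 450 bp covered an exon of Hoxb7, and a region of 650 bp lay before Hoxb4. A region of 275 bp lay between Hoxb13 and Hoxb9. The only Pax5 peak of the cluster (chr11:96122737-96123494, score 127.7) lay in an exon of the protein-coding gene Gm53 between Hoxb13 and Hoxb9, and overlapped neither histone mark. The first 300 bases of the intergenic H3K27ac peak (chr11:96172389-96172688, plus strand, NCBIM37) are shown as the site with H3K27ac that is farthest from a Hox start, and they held 5 CpG, in capitals.
Hoxb5 to Hoxb4: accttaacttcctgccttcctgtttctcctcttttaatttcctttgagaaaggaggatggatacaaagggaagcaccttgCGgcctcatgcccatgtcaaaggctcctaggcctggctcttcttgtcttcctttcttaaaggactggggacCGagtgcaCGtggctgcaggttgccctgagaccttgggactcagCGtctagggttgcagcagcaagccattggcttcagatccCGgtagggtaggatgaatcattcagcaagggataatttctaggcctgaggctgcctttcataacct

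The Hoxc cluster (chr15:102751534-102867274, 115.7 kb) was nearly empty. Its only feature was an H3K4me3 region of 350 bp (chr15:102807555-102807904), 92 bp from a start of Hoxc9, which covered 0.302% of the cluster. The nearest H3K27ac peaks lay 198.5 kb before and 126.1 kb after the cluster, and the nearest Pax5 peaks 198.3 and 131.9 kb. The stretch without H3K27ac or Pax5 includes all of the genes from Hoxc13 to Hoxc4.

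The Hoxd cluster (chr2:74506367-74603200, 96.8 kb) had no H3K27ac peak, no H3K4me3 region and 1 Pax5 peak. The nearest H3K27ac peaks lay 88.8 kb before and 689.8 kb after it, and the nearest H3K4me3 regions 88.7 and 60.3 kb. The Pax5 peak (chr2:74510708-74511297, 590 bp, score 345.7) lay between Hoxd13 and Hoxd12, 1689 bp from the start of Hoxd12 and 4341 bp from that of Hoxd13. It ranked 4399 in its list (top 28.5%), above the 2 weaker Pax5 peaks of the other clusters. Over the whole Pax5 list 79.3% of peaks overlapped H3K27ac and 61.0% overlapped H3K4me3, whereas the Pax5 peaks of Hoxd and Hoxb overlapped neither and both of Hoxa overlapped both.

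**Figure D4:**
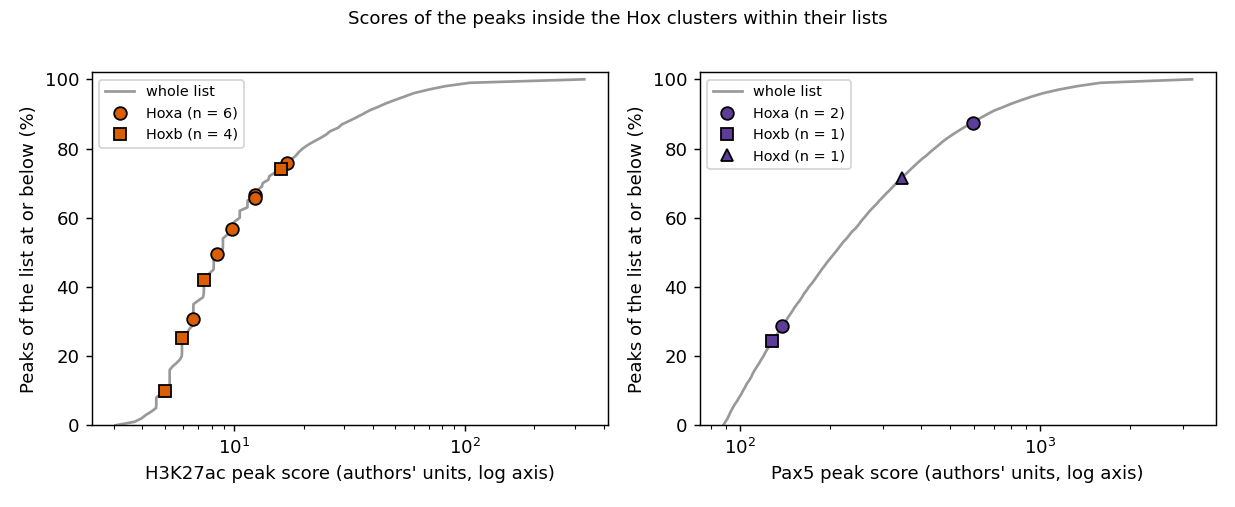
Scores of the peaks inside Hox clusters (symbols by cluster) on the curve of their whole list, for H3K27ac on the left and Pax5 on the right. The horizontal axes are the authors' scores on a log axis and the vertical axes the percentage of peaks of the list at or below a score. The Hox peaks with H3K27ac reach no higher than 16.9, and the Pax5 peak at Hoxa7 stands at 597.1.

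Over all 4 clusters (492.0 kb), 10 H3K27ac peaks, 20 H3K4me3 regions and 4 Pax5 peaks were listed. These are 20.3, 40.6 and 8.13 per Mb, against 26, 6.75 and 5.8 per Mb of the genome. Pooled over the clusters, H3K27ac was thus lower in number per length than over the genome, and H3K4me3 was higher. By bases covered, the shares were 0.995%, 3.08% and 0.699%, against 1.80%, 0.734% and 0.618% of the genome. Pax5, with only 4 peaks, was thus close to the genome by this measure. Values per length do not allow for the density of genes. Per gene, both H3K4me3 and Pax5 were listed at a smaller share of Hox genes than of all genes, as given above. Single clusters differed from the pooled values. H3K27ac stood at 56.9 per Mb in Hoxa, 23 in Hoxb and 0 in Hoxc and Hoxd. For H3K4me3 the values were 133 in Hoxa, 28.7 in Hoxb, 8.64 in Hoxc and 0 in Hoxd. For Pax5 they were 19, 5.75, 0 and 10.3 in the same order. Of the 20 H3K4me3 regions 16 were narrower than the median of 1025 bp in the list, and of the 10 H3K27ac peaks 6 were narrower than 428 bp. Of the same 10 peaks, 5 scored above the median of 8.52 in the list. Of the 20 H3K4me3 regions, 6 overlapped H3K27ac and 2 overlapped Pax5, against 79.7% and 52.9% of the whole H3K4me3 list. In contrast 9 of the 10 H3K27ac peaks (90.0%) overlapped H3K4me3, against 28.3% of the whole H3K27ac list.

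The microRNA genes of the clusters lie among the Hox genes and act on the same axis, and their sequences are shown because 5 of the 6 genes form 2 families by seed, each spread over several clusters. All 6 were matched by symbol to RefSeq (GRCm38.p6), and Mir615 shares neither seed. The 5p sequences of the 2 families follow, with the seed, bases 2 to 8, in capitals.
miR-10a-5p: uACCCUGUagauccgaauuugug
miR-10b-5p: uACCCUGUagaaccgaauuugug
miR-196a-5p: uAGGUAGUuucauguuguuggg
miR-196b-5p: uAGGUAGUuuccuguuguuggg

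Of these genes, Mir10a, which lies just before the marked part of Hoxb4, had H3K4me3 817 bp from its start, and its nearest H3K27ac peak was at 1093 bp. Mir10b, with the same seed, lies in the Hoxd cluster, and its nearest H3K4me3 region was 99422 bp away. In the miR-196 family, Mir196b lay 1082 bp from the weak H3K27ac peak inside Hoxa9 and 2182 bp from H3K4me3. Mir196a-1 and Mir196a-2 lay 21443 and 3783 bp from the nearest H3K4me3 region. Mir615, in the Hoxc cluster, lay 37437 bp from one. Of all 28 other annotated genes inside the clusters, 2 had H3K4me3 within 1 kb of a start (Mir10a among them), 1 had Pax5 (Gm53), and 0 had H3K27ac. The shares of all protein-coding genes were 52.7%, 37.5% and 48.4%. Most of the 28 are not protein-coding, and no share over such genes was computed, so these counts are not read as low or high.

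The genes of the list labelled Hox cofactors, all of the TALE class, had higher shares than the Hox genes. The label names the list, and whether each member, such as Tgif1 or Tgif2, works with Hox proteins was not examined. Of the 11 genes of this list, 6 had H3K27ac (54.5%), 10 had H3K4me3 (90.9%) and 6 had Pax5 (54.5%), against 48.4%, 52.7% and 37.5% of all protein-coding genes. The share with H3K27ac was thus close to that of all genes. Meis1, the main partner of Hoxa9 in blood, had all 3, with an H3K27ac score of 27.16, an H3K4me3 region of 3150 bp and a Pax5 score of 162.1. Pknox1, Tgif1 and Pbx4 also had all 3, with H3K27ac scores of 86.19, 62.66 and 8.366. Pbx2 had both histone marks without Pax5, and Meis3 and Tgif2 had H3K4me3 and Pax5 without H3K27ac. Pbx3 had H3K4me3 alone, over 2200 bp, Pknox2 a single bin of 25 bp, and Meis2 had no peak of any list.

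Most genes that maintain Hox states had all 3 features, which 34.4% of all protein-coding genes had. All 8 genes found of the list labelled trithorax had all 3 features, namely Mll1, Men1, Psip1, Dot1l, Wdr5, Ash2l, Rbbp5 and Dpy30. The label names the list, and not every member, such as Dot1l, is itself a trithorax protein. Their H3K27ac scores ran from 9.754 for Dot1l to 115.8 for Rbbp5. Of the 18 Polycomb genes, 18 had H3K4me3, 15 had H3K27ac (83.3%) and 13 had Pax5 (72.2%), against 52.7%, 48.4% and 37.5% of all protein-coding genes. Those with all 3 included Ezh1, Ezh2, Eed, Suz12, Rbbp4, Jarid2, Mtf2, Ring1, Rnf2, Cbx7, Cbx8 and Phc2, and the scores of the methyltransferase gene Ezh2 were 69.4 for H3K27ac and 465.7 for Pax5. Rbbp7 and Phc1 lacked Pax5. Bmi1, Pcgf2 and Cbx2 had H3K4me3 over 2525, 2000 and 1550 bp with neither H3K27ac nor Pax5.

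Relatives of the Hox genes outside the clusters had shares below those of all genes, as the Hox genes did. Among the 6 ParaHox and Cdx genes, Gsx1 had H3K4me3 over 525 bp, 802 bp from its start, and Gsx2, Pdx1, Cdx1, Cdx2 and Cdx4 had no peak. Evx1 and Evx2, homeobox genes beside the Hoxa and Hoxd clusters, had none. Of 80 other homeobox genes, 12 had H3K27ac (15.0%), 26 had H3K4me3 (32.5%), 17 had Pax5 (21.2%) and 52 had no peak (65.0%), against 48.4%, 52.7%, 37.5% and 43.8% of all protein-coding genes. The 12 with H3K27ac had all 3 features, and they were Hhex, Hlx, Satb1, Zeb1, Zeb2, Cux1, Pou2f1, Pou2f2, Zhx1, Zhx2, Adnp and Homez. Several of these are known blood or lymphoid regulators, and their H3K27ac scores ran from 11.43 for Zeb1 to 135.9 for Adnp.

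**Figure D5:**
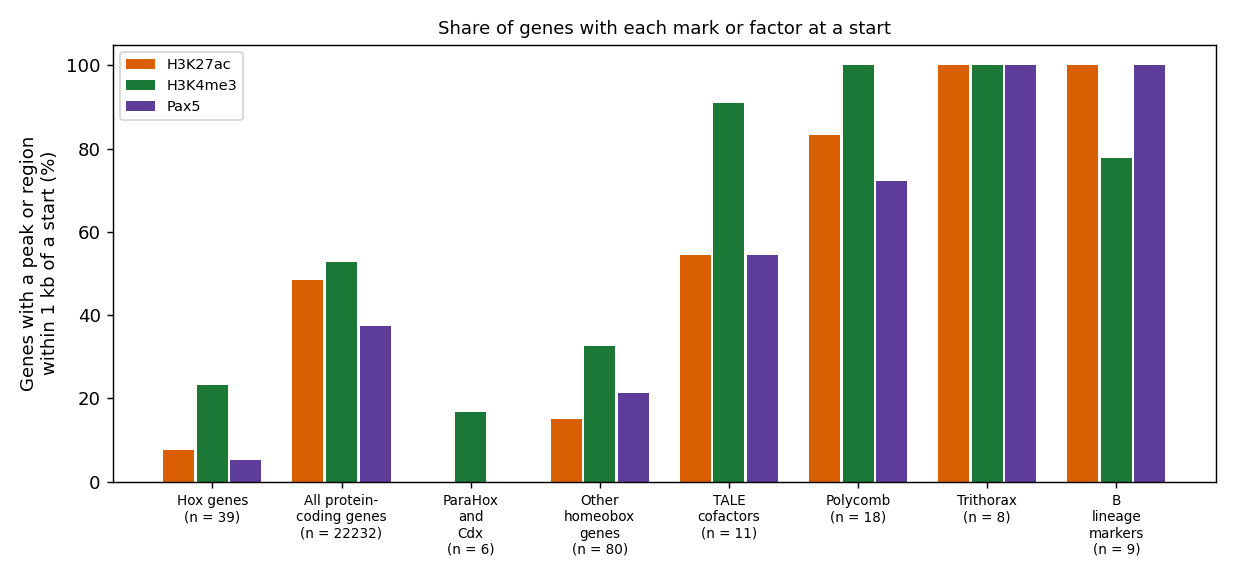
Percentage of genes with an H3K27ac, H3K4me3 or Pax5 peak or region within 1 kb of a start, for Hox genes, all protein-coding genes and 6 gene lists, with the number of genes under each. Hox genes stand at 7.69%, 23.1% and 5.13%, below all protein-coding genes for each list, and the genes of the list labelled trithorax stand at 100% for each.

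The bordering genes differed from one side to the other for Hoxa and Hoxd, and had no feature on either side of Hoxb and Hoxc. Evx1 after Hoxa and Evx2 before Hoxd had no peak. On the opposite side of Hoxa, Skap2 lay 142818 bp before the cluster. It had an H3K27ac score of 35.08, H3K4me3 over 1850 bp and a Pax5 score of 125.3. On the opposite side of Hoxd, Mtx2 lay 60660 bp after the cluster, with H3K4me3 over 1425 bp and a Pax5 score of 110. Ttll6 and Skap1 on either side of Hoxb, and Gm17649 and Smug1 on either side of Hoxc, had none within 1 kb of a start. The next gene before Hoxc, Calcoco1, had all 3 features, and the next before Hoxd, Lnp, had both histone marks. Genes with features at a start thus lay on at least 1 side of the Hoxc and Hoxd clusters, which held few features themselves.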

How the data were processed

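ChIP-seq libraries of pre-B cells (6 samples, of which 3 are inputs) were amplified with 18 PCR cycles. The submitters' processing notes name Bowtie 0.12.9, MACS 1.4.2 and mm9. The study's methods state that duplicate reads were removed before mapping. Those methods name another Bowtie version, so this step may not apply to the deposited lists. The H3K27ac and Pax5 files deposited by the authors hold peaks with 1 score each. The Pax5 peaks were called against pre-B input, and for H3K27ac the use of input is not stated. The other deposited values, those of H3K4me3, are the positions of 782636 bins of 25 bp without a score, whose caller and threshold are not given in the sources used here.

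Bins were joined across gaps of up to 100 bp. Starts of protein-coding transcripts in GENCODE M1 on NCBIM37 were extended by 1 kb on both sides, and any overlapping base counted. A cluster runs between the outer bases of its outermost Hox genes. The overlap counts were checked against a direct scan. RefSeq promoters were placed on NCBIM37 by exact match of 300 bases, which gave 24 promoters of 22 Hox genes, and the other 17 genes are not covered. CpG values could be computed for 10497 of the 10510 genes without H3K4me3 and for all others. Kmt2a was found under its older name Mll1.

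The genes named by rule are the Hox genes with a feature, the genes that border a cluster, the members of the TALE, trithorax, Polycomb, ParaHox and Evx lists, and the other homeobox genes with all 3 features. Some of these genes are counted but not reported here by name. The members and lists were chosen with earlier results of these data known. Alternatives were other distances, starts, overlaps, joining gaps, cluster extents and a list of the higher-scoring 50%. Python 3.11.15, numpy 2.4.6 and matplotlib 3.10.9 were used.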

Additional observations from a re-analysis of the deposited data

How the results depend on the processing

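No paired analysis was possible because there is only 1 library for each list, and for the same reason no replicate could be left out. Of 51 alternative counts, 38 were within 1.5 times the reported count and 13 were not. With 5 kb around a start, 7 Hox genes had H3K27ac, 14 had H3K4me3 and 6 had Pax5, against 52.8%, 55.3% and 41.4% of all protein-coding genes. The number with Pax5 was 1 with 500 bp around a start, with coding starts, with RefSeq starts, with the higher-scoring 50% of the list, with the midpoint of the peak and with at least 50% of the peak. The remaining gene was Hoxa7, or Hoxa3 with RefSeq starts. Inside the clusters, the higher-scoring 50% of the lists left 5 H3K27ac and 2 Pax5 peaks, regions of at least 500 bp left 11 H3K4me3 regions, and 100 kb added on both sides gave 7 Pax5 peaks. These shifts follow from how the alternatives were built, with other starts, other distances or fewer peaks. Coding starts and RefSeq starts were chosen after seeing the data. The number of genes without a peak ran from 23 to 32. Depth, unknown here, limits each statement on a missing peak.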
